A study of Mus musculus with 4 samples.

Results

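The 9 genes described here encode chemokine receptors that steer T cells into tissue: Ccr1, Ccr2, Ccr3, Ccr4, Ccr6, Ccr8, Ccr9, Cxcr3 and Cxcr6. Their chromatin was read from 6 tables deposited by the authors, each of which lists regions whose accessibility differed between 2 of 4 T helper cell populations. A region belonged to a receptor gene when its midpoint lay inside the gene, or outside all protein-coding genes with an end of that gene as the nearest within 100 kb. Regions were taken by position, with no fold used, but the 9 genes were chosen with earlier results of these data known. The rule found 53 of the 52537 regions that remained after overlapping regions of the tables were merged. They lay at 7 of the 9 genes: 19 at Ccr1, 7 each at Ccr2, Ccr4, Ccr6 and Ccr9, and 3 each at Ccr3 and Ccr8. Cxcr3 and Cxcr6 had 0.

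ATAC-seq, which reads open chromatin as DNA cut by a transposase, was done on cells from mice given house dust mite (HDM) allergen as a model of asthma, 15 days after sensitization and challenge. All were sorted as CD3+ CD4+ cells: Th2 cells carried CD44, ST2 and CD30L, regulatory T cells (Treg) were CD25hi and lacked CD30L, other effector cells carried CD44 and CD30L without ST2, and naive cells were CD44lo. By the protocol the naive cells came from mLN and the rest from lung with airways, so tissue and cell state cannot be told apart in a contrast with naive cells, although the source label of the naive sample also reads lung and airways. Titles give day 15 for all 4, but the descriptions of the other effector and naive samples carry D10, so a difference in day cannot be told apart from cell state in contrasts of these with Th2 or Treg cells. Each population had 3 biological replicates of 1000 sorted cells, and the strain and age of the mice were not given in the sources used here. In such bulk samples, more cells with an open site and a more open site in each cell cannot be told apart. No receptor described here was part of a sort gate. Every fold below is the authors' own log2 value from their deposited tables, given as the higher population over the lower one. Positions are on GRCm38, which the tables fit although the submitters' notes name mm9. The tables hold 1 value for each region and pair, so replicate spread and depth are unknown, no test over samples could be made, and a region missing from a table is not shown to be equal in its 2 populations.

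Chemokines are small secreted proteins that form gradients in tissue, and their receptors are G protein coupled receptors that turn a cell toward the source. Which receptors a T helper cell carries decides which organs and which inflamed sites it can enter. Resting cells rely on lymph node receptors such as Ccr7, whereas effector and regulatory cells take up receptors for inflamed lung, skin or gut. Th2 cells are known for Ccr4 and Ccr8, Th1 cells for Cxcr3, Th17 cells for Ccr6 and gut-homing cells for Ccr9.

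RefSeq start sites were held for all 9 genes, with 10 start windows in all because Ccr6 had 2. For Ccr3 and Ccr4 the start site used here lies well inside the gene. It is at chr9:124021971 for Ccr3, whose 5′ end is at chr9:124017825, and at chr9:114496544 for Ccr4, whose 5′ end is at chr9:114505476. A listed region covered bases just before 5 of these 10 starts, and the 250 bases before each of the 5 are shown because the receptors differ in which population had the region. They follow RefSeq on GRCm38.p6 and run 5′ to 3′ along the gene's strand. Capitals mark matches to 5 short motifs that were searched on both strands, namely TGANTCA for AP-1 factors, AGATAA for GATA factors, TGTGGT for Runx factors, GGAAGT for ETS factors and CTTTGA for TCF factors, and no matches overlapped one another.
Ccr1 (chr9:123968693-123968942, minus strand): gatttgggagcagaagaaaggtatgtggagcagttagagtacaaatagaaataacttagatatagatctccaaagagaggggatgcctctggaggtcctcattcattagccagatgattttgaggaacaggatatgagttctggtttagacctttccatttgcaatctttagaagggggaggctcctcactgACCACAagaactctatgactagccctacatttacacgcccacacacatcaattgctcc
Ccr4 (chr9:114496545-114496794, minus strand): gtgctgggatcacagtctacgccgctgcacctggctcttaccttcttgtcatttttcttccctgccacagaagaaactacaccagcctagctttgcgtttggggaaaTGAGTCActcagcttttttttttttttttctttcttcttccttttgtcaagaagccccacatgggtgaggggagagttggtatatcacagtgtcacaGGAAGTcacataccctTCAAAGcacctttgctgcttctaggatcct
Ccr6, inner start site (chr17:8242276-8242525, plus strand): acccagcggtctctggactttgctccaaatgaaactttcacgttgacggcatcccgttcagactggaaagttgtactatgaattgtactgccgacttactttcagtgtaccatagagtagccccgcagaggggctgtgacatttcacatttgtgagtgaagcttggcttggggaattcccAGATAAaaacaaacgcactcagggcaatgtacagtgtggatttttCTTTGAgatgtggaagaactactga
Ccr8 (chr9:120091883-120092132, plus strand): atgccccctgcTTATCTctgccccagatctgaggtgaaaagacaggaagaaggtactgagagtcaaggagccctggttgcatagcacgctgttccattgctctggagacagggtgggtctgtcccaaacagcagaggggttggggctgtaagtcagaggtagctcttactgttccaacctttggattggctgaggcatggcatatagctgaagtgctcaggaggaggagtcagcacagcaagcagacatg
Ccr9 (chr9:123766961-123767210, plus strand): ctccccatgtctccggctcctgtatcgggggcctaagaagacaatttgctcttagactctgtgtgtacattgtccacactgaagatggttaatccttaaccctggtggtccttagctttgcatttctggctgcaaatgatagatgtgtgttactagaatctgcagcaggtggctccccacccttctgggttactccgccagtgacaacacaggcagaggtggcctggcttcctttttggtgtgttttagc

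The Ccr1 window overlapped a region listed as more accessible in Th2 over naive and other effector cells, the Ccr4 window in Th2 and Treg over other effector cells, the inner Ccr6 window in Treg over other effector cells, the Ccr8 window in Treg over naive and other effector cells, and the Ccr9 window in naive over other effector cells. An AGATAA match stood in the Ccr6 and Ccr8 windows, 2 of the 5, against 9.99% of all 32851 windows of the same length. The Ccr4 window alone of the 5 held TGANTCA, found in 6.75% of all windows, and GGAAGT, found in 19.7%. CTTTGA was in 2 of the 5, those of Ccr4 and Ccr6, and in 13.8% of all windows. TGTGGT was in the Ccr1 window only, and in 14% of all. The Ccr9 window held none of the 5 motifs. Over all 10 start windows, with or without a listed region, AGATAA was in 4, TGANTCA in 2, GGAAGT in 4, CTTTGA in 4 and TGTGGT in 3. The motifs were thus not particular to the windows with a listed region. A match describes the letters and is no evidence that a factor binds.

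In the contrasts with naive cells, receptor chromatin was listed more often as higher in Treg or Th2 cells than as higher in naive cells. Against naive cells, Treg cells were higher at 13 of the 53 regions (24.5%), where 6.64% of all merged regions were listed that way, and naive cells were higher at 1 (1.89%), against 5.76%. Th2 cells were higher than naive cells at 8 (15.1%), against 9.67%, and naive cells higher than Th2 cells at 1 (1.89%), against 9.21%. In the direct contrast of Treg with Th2 cells, 4 regions (7.55%) were higher in Treg cells, against 3.34% of all regions, and 0 were higher in Th2 cells, against 6.72%.

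Other effector cells were the lower population throughout their 3 tables, at the receptors as at all other regions. Treg cells were higher than other effector cells at 37 regions (69.8%), against 46.7% of all regions. For Th2 over other effector cells the count was 28 (52.8%), which stood at the background of 53.2% and is no result about the receptors. Naive cells were higher than other effector cells at 12 (22.6%), against 33.7%. Ccr1 supplied 19 of the 53 regions, and without it the share was 64.7% of 34 for Treg over other effector, 35.3% for Th2 over other effector, 26.5% for Treg over naive and 11.8% for Th2 over naive cells. Regions of 1 gene are not independent, and every merged region is in at least 1 table, so these are shares of listed regions and not of all open chromatin. Member folds were close in size to those of all regions listed in the same direction, with medians of 5.31 against 5.72 for Treg over naive, 5.54 against 5.59 for Th2 over naive and 5.45 against 5.38 for Treg over other effector cells.

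**Figure D1:**
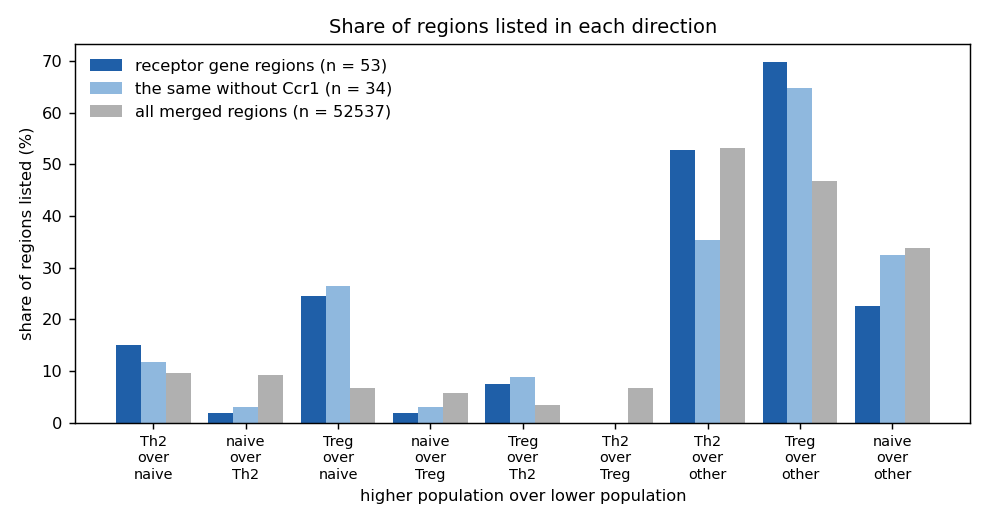
Share of regions listed in each direction (vertical axis, %), for the 53 receptor gene regions, the 34 without Ccr1 and all 52537 merged regions. Treg over naive (24.5% against 6.64%) and Treg over other effector cells (69.8% against 46.7%) stand above all regions, Th2 over Treg is at 0.

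Counted by gene, 5 of the 9 receptors had a region higher in Treg cells than in naive cells, where 9.58% of the 21896 protein-coding genes did, and 1 had a region higher in naive cells, against 8.33%. A region higher in Th2 cells than in naive cells was present at 4 receptors, against 13.4% of genes, and one higher in naive cells than in Th2 cells at 1, against 11.7%. Treg over Th2 regions were at 3, against 5.6% of genes, and Th2 over Treg regions at 0, against 10.2%. Over other effector cells, Treg cells were higher at 7 receptors (47.8% of genes), Th2 cells at 6 (51.6% of genes) and naive cells at 5 (29.5% of genes).

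**Figure D2:**
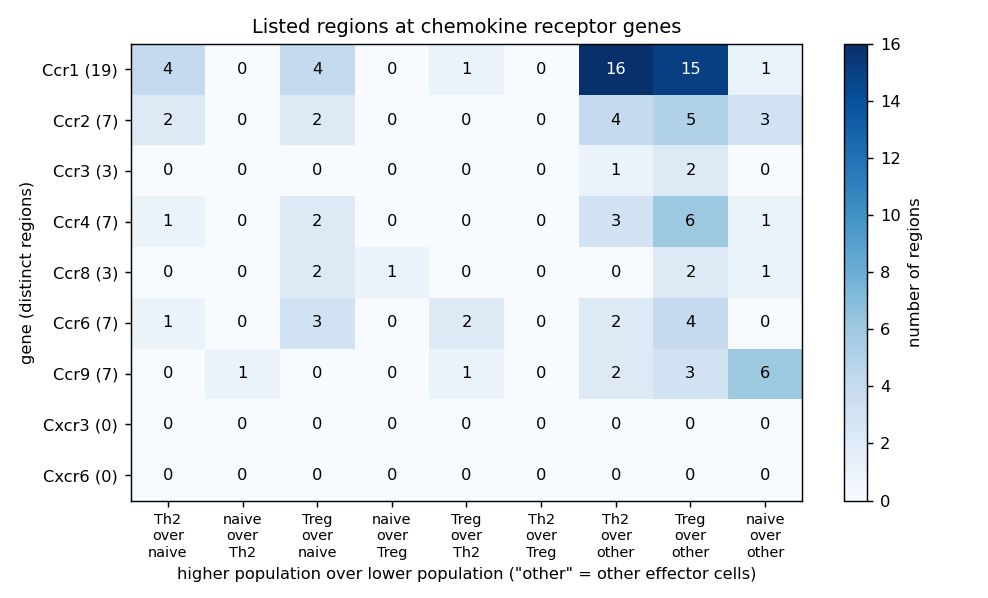
Number of listed regions for each receptor gene (rows, with its distinct regions in brackets) and direction (columns). Ccr1 holds 16 regions for Th2 over other effector cells and 15 for Treg over other effector cells, Ccr9 holds 6 of the 12 of naive over other effector cells, and Cxcr3 and Cxcr6 are empty.

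Ccr1, Ccr2 and Ccr3 are receptors of inflammation and lie close together on chromosome 9. Ccr1, which binds Ccl3 and Ccl5 and is known mainly from monocytes, neutrophils and activated T cells, had more regions than any other member. The region over its start site, at chr9:123968129-123968883, was higher in Th2 cells than in naive cells by 7.81 and higher in Th2 cells than in other effector cells by 7.63. Only 4.19% of regions higher in Th2 cells than in naive cells had a larger fold. The Ccr1 start region was in none of the 3 tables that include Treg cells. A second region, 8.4 kb downstream of the start site at chr9:123959988-123960595, had the other pattern. Here Treg cells were higher than naive cells by 6.39, than Th2 cells by 6.40 and than other effector cells by 6.22.

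Most Ccr1 regions were far from the gene, in the stretch between Xcr1 and Ccr1. Of the 19, 14 lay more than 20 kb beyond the end of Ccr1 and filled chr9:123923137-123941690, an 18.6 kb stretch, with 5086 bases inside listed regions. No other window of 20 kb that began at a merged region held as many as 14 whole merged regions among 52537 such windows, whose median was 2. With windows of 50 kb, the 19 regions from that point were matched or exceeded in 7 others. The stretch was picked after its regions were seen, and some neighbours in it nearly touch, so the number of separate elements is not known. Within it Th2 cells were higher than other effector cells at 13 regions and Treg cells at 11. Th2 and Treg cells were each higher than naive cells at the same 3 regions. At the strongest of these, chr9:123936553-123936990, the fold was 7.96 for Treg over naive cells and 5.57 for Th2 over naive cells. At chr9:123940195-123940433 Treg cells were higher by 7.14 and Th2 cells by 6.37, and at chr9:123935442-123935737 Treg cells were higher by 6.75 and Th2 cells by 5.13. None of the 14 was in the table of Treg against Th2 cells.

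Farther from the gene, the Th2 fold was slightly the larger at the strongest regions listed for both Th2 and Treg cells. At chr9:123928506-123929266, the fold over other effector cells was 7.42 for Th2 and 7.19 for Treg cells, and at chr9:123928067-123928415 it was 7.12 for Th2 and 7.06 for Treg cells. A pair of regions had an entry for Th2 cells alone, with a fold over other effector cells of 7.01 at chr9:123923914-123924402 and 6.98 at chr9:123924539-123925233. Naive cells appear once, at chr9:123931688-123931944, where they were higher than other effector cells by 5.46, beside 7.10 for Th2 and 4.97 for Treg cells at the inner part of that region. The other Ccr1 regions had folds from 4.39 to 6.57.

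**Figure D3:**
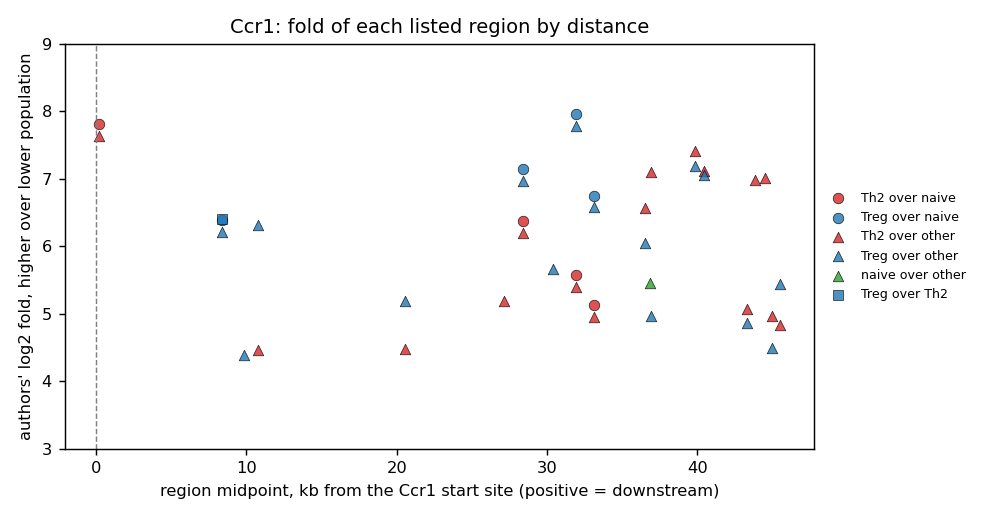
Authors' log2 fold (vertical axis) of each listed Ccr1 region against the distance of its midpoint from the Ccr1 start site in kb (horizontal axis, positive is downstream), coloured by higher population and shaped by lower population. The start site region is listed for Th2 cells only (7.81 and 7.63), and the dense group beyond 25 kb holds both Th2 and Treg folds, up to 7.96.

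Ccr2, the Ccl2 receptor that draws monocytes and memory T cells out of blood, had a region inside the gene, 1.21 kb downstream of the start site at chr9:124103204-124103574. It was higher in Treg cells by 4.61 and in Th2 cells by 4.88 over naive cells. Over other effector cells it was higher in Treg cells by 5.58 and in Th2 cells by 5.86. A distal region 30.5 kb upstream, at chr9:124071596-124071821, was higher than naive cells in Th2 cells by 5.81 and in Treg cells by 4.80. The largest Ccr2 fold, 7.43 for Treg over other effector cells, lay 33.56 kb before the start site at chr9:124068358-124068897, where Th2 cells were higher by 4.87 and naive cells, over a slightly longer region, by 6.87. Naive cells were also higher than other effector cells 1.19 kb before the start site, by 4.38. All 4 regions at which Th2 cells exceeded other effector cells were also listed for Treg cells.

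Ccr3, the eotaxin receptor of eosinophils that is also carried by some Th2 cells, had 3 regions, all beyond the end of the gene. The Th2 region, 19.1 kb from the start site, was higher than in other effector cells by 4.30. The 2 Treg regions were higher than in other effector cells by 4.29 and 3.70. These folds were low within their tables: 83.7% of regions in the same direction had a larger fold than the Th2 region, and 85.2% and 99.4% had a larger one than the Treg regions of 4.29 and 3.70. No Ccr3 region was in a table of Th2 cells with naive or Treg cells.

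Ccr4 and Ccr8 are the receptors most tied to type 2 and regulatory cells. Ccr4, which binds Ccl17 and Ccl22, had 7 regions. Treg cells were higher than other effector cells at 6 of them, by 4.89 to 6.88, and Th2 cells at 3, by 4.06 to 5.33. At the 3 regions listed for both, the Treg fold was the larger, with 6.88 for Treg and 5.33 for Th2 cells at chr9:114487384-114488260. Over the start site, at chr9:114496415-114497051, it was 6.51 for Treg and 4.06 for Th2 cells, and at chr9:114507522-114507762 it was 4.89 for Treg and 4.12 for Th2 cells. None of these differences was listed between Treg and Th2 cells directly. The first of the 3, 8.72 kb downstream of the start site, was also higher than in naive cells by 7.05 in Treg and 5.51 in Th2 cells. A region 0.43 kb downstream of the start site at chr9:114496007-114496215 was higher in Treg cells than in naive cells by 5.31. Naive cells were higher than other effector cells at 1 Ccr4 region, by 4.69.

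Ccr8, which binds Ccl1, was listed for Treg cells and not for Th2 cells. A broad region of 1468 bases over its start site, chr9:120090824-120092291, was higher in Treg cells than in naive cells by 8.08. Over other effector cells the Treg fold there was 7.91. These were the largest member folds in both directions, exceeded by 2.98% and 3.34% of regions in the same direction. The region inside the gene at chr9:120092698-120092905 was higher in Treg cells than in naive cells by 4.76 and than in other effector cells by 4.59. A region 7.58 kb before the start site, chr9:120084306-120084798, ran the other way. It was lower in Treg cells than in naive cells by 6.04 and lower in other effector cells than in naive cells by 6.03. No Ccr8 region was in a table as higher or lower in Th2 cells, so the position of Th2 cells at the Ccr8 start site is not known from these tables.

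Ccr6 and Ccr9 direct cells to mucosal tissue. Ccr6, the Ccl20 receptor of Th17 cells, some Treg cells and memory cells, held 2 of the 4 regions higher in Treg cells than in Th2 cells. One lay 9.2 kb before the outer start site at chr17:8226657-8227021, where Treg cells were higher than Th2 cells by 5.31, than naive cells by 5.30 and than other effector cells by 5.12. The other, at chr17:8233533-8233967 and 2.29 kb before that start site, was higher in Treg cells than in Th2 cells by 5.31, than in naive cells by 4.91 and than in other effector cells by 5.12. Inside the gene, Treg cells were higher than naive cells by 4.58 at chr17:8238142-8238460, and higher than other effector cells by 4.25 over the inner start site. Th2 cells had separate Ccr6 regions. They were higher than naive cells by 4.17 at a region 10.27 kb before the outer start site, higher than other effector cells by 5.20 at its neighbour 10.69 kb before it, and higher than other effector cells by 4.97 beyond the gene. No Ccr6 region was shared by Th2 and Treg cells, and naive cells were the higher population at 0. Among Th1 and Th17 marker genes, Ifng had 2 regions higher in Treg cells and 0 higher in Th2 cells, and Tbx21 had 1 higher in Treg cells and 1 higher in Th2 cells. Il17a had 1 region, higher in Treg cells than in naive and other effector cells. The part of such cells in the Ccr6 result was not tested.

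Ccr9, the Ccl25 receptor of gut-homing T cells, was the receptor with most regions higher in naive cells. Naive cells were higher than other effector cells at 6 of its 7 regions, by 3.93 to 7.41. The region over the start site, chr9:123766882-123767425, was higher in naive cells than in other effector cells by 6.03 and was in no other table. The strongest region, 12.7 kb before the start site at chr9:123754160-123754848, was lower in Th2 cells than in naive cells by 5.55. In the same place Treg cells were higher than Th2 cells by 5.09 and than other effector cells by 6.94, and naive cells were higher than other effector cells by 7.41. Inside the gene at chr9:123768479-123768918 naive cells had no entry, with Treg cells higher than other effector cells by 6.31 and Th2 cells by 5.64. Close before the start site, at chr9:123765910-123766293, Treg cells were higher than other effector cells by 5.04 and naive cells by 3.93.

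**Figure D4:**
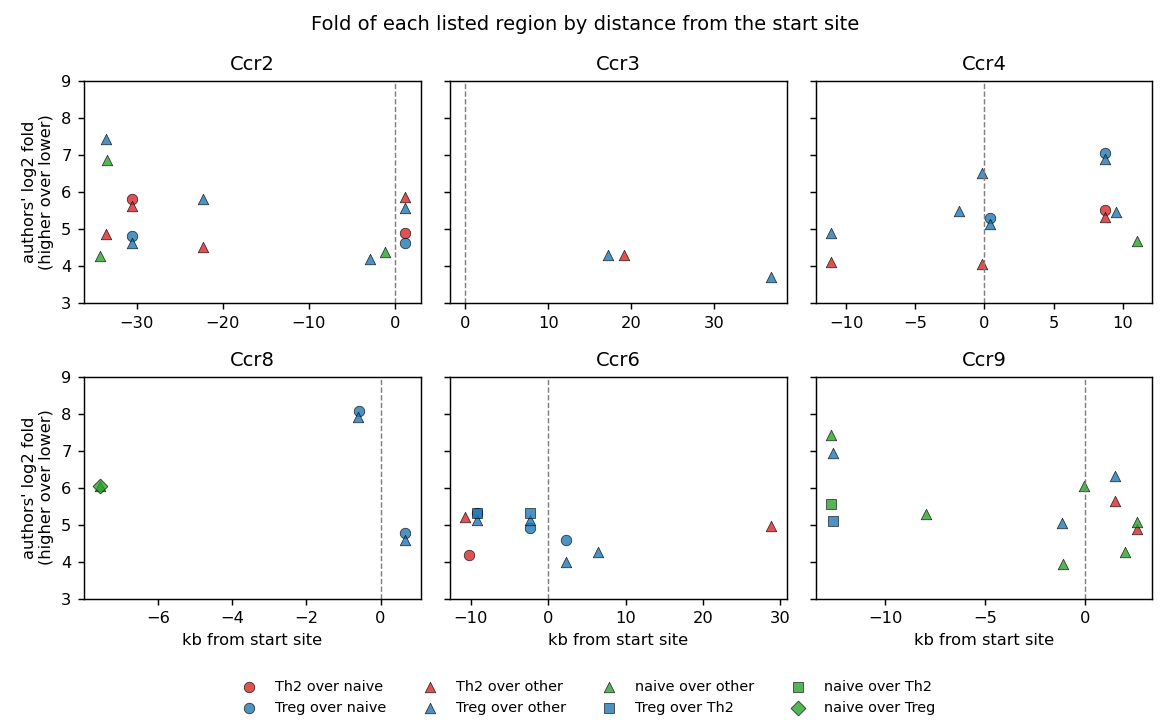
Authors' log2 fold (vertical axis) of each listed region of Ccr2, Ccr3, Ccr4, Ccr8, Ccr6 and Ccr9 against the distance of its midpoint from the start site in kb. Treg folds reach 8.08 next to the Ccr8 start site, Ccr6 holds both Treg over Th2 regions of 5.31, and green marks of naive cells are most frequent at Ccr9.

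Cxcr3, the receptor for Cxcl9 and Cxcl10 that marks Th1 cells, had no region within 31.2 kb of its body. The nearest, which Gm4779 claimed as the nearer gene, was higher in Treg cells than in other effector cells by 4.38. Cxcr6, the Cxcl16 receptor of lung-resident memory cells, lies within the longer gene Fyco1, so that regions beside it count as Fyco1 regions. The nearest lay 7.1 kb away at chr9:123818744-123818929, and it was higher in Th2 cells than in other effector cells by 5.34 and lower in Treg cells than in Th2 cells by 4.45. All 7 Fyco1 regions were higher in Th2 cells than in other effector cells, against 53.2% of all merged regions. Of the 7, 3 were higher in Treg cells than in other effector cells, against 46.7%, which is no result about Fyco1. Over naive cells, 2 each were higher in Th2 and in Treg cells, against 9.67% and 6.64%. Another count of 2 was higher in Th2 cells than in Treg cells, against 6.72%. No midpoint lay inside Cxcr6 itself, and 2 lay within 20 kb of it.

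The folds of a region over naive cells and over other effector cells mostly differed by a constant, so the pair should not be read as 2 separate results. Of 7 receptor regions with the same coordinates in both Th2 tables, the Th2 fold over naive cells exceeded that over other effector cells by 0.17 or 0.18 at 6, and the exception was the region inside Ccr2 (-0.98). For Treg cells it was 8 of 10, with exceptions inside Ccr2 (-0.97) and at chr17:8233533-8233967 before Ccr6 (4.91 over naive and 5.12 over other effector cells). Over all regions so listed, the difference lay within 0.01 of 0.17 at 81.9% of 3896 for Th2 and 87.3% of 2761 for Treg cells. Likewise, Treg over Th2 exceeded Treg over other effector by 0.18 or 0.19 at 3 of 4 receptor regions, the exception being Ccr9 (-1.85), and lay within 0.01 of 0.18 at 75.4% of 1759 regions higher in Treg cells than in Th2 cells. The cause of this near constant difference was not tested, and the tables hold no read counts.

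The 53 regions fell into 14 patterns of tables and directions. The commonest, with 12 regions, was higher in both Th2 and Treg than in other effector cells, and 8 of these were at Ccr1. A further 8 were higher in Treg cells than in other effector cells alone, and 6 were higher in Th2 and Treg than in both naive and other effector cells (3 at Ccr1, 2 at Ccr2, 1 at Ccr4). The share of all merged regions with each pattern was not counted, so these patterns are not shown to be particular to the receptors. Of all merged regions, 53.2% were higher in Th2 cells and 46.7% in Treg cells than in other effector cells. Receptor regions lay inside a gene less often than all merged regions, 20.8% against 60.2%, and their median width was 351 bases against 497. The members' genes are short, from 2613 to 22479 bases, and the part of gene length in this share was not tested. At 7 regions (13.2%) there were 4 tables, against 3.51% of all merged regions with 4 or more. By presence or absence of a region in the 9 directions, Ccr2 and Ccr4 were alike in 9 of 9, and Cx3cr1 shared that pattern, whereas Ccr9 was most like Cxcr5 and Rgs2 with 8 of 9.

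Of 49 other chemokine system genes on a list, 48 were in the gene table. Receptors outside the members had a region higher in Treg cells than in naive cells at 5 of 14 genes, against 9.58% of all protein-coding genes. For Th2 over naive cells it was 6 of 14, against 13.4%. Naive cells were higher at 4 of 14 in each of the 2 contrasts, against 8.33% of genes over Treg cells and 11.7% over Th2 cells. Between Treg and Th2 cells, 4 of 14 had a region higher in Treg cells, against 5.6%, and 2 of 14 had one higher in Th2 cells, against 10.2%. Of these receptors Ccr7 belongs to the naive marker list that set the sign of the folds, so its direction, with 7 regions lower in Th2 cells and 6 lower in Treg cells than in naive cells, is not an independent observation. Ligand genes were listed the other way from the members between Treg and Th2 cells. A region higher in Treg cells than in Th2 cells was at 0 of 17 ligand genes, against 5.6% of genes. One higher in Th2 cells than in Treg cells was at 7 of 17, against 10.2%. Among these were Ccl2 and Ccl4 with 2 regions each and Ccl1 and Ccl17 with 1 each. Ccl1, the Ccr8 ligand, had 4 regions more accessible in Th2 cells than in naive cells and 3 more accessible in Treg cells than in naive cells. Signalling genes were split, with 7 of 17 higher in Treg and 8 of 17 higher in Th2 cells, against the same 5.6% and 10.2% of genes. The most regions were 6 at Gnaq, a G protein subunit, higher in Th2 cells than in Treg cells. These counts were not tested, and gene length was not taken into account.

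The labels fitted most of their marker genes, though the Th2 genes were hardly separated in the direct contrast of Treg with Th2 cells. Among Th2 genes, Il4, Il5, Il13 and Il1rl1 had 19 regions higher in Th2 cells than in naive cells and Gata3 had 0. Il1rl1 encodes the sort marker ST2 and supplied 11 of the 19, but it also had 9 higher in Treg cells than in naive cells. Il4, Il5, Il13 and Gata3 had 0 regions higher in Treg cells than in naive cells. In the direct contrast of Treg with Th2 cells, the 5 Th2 genes had 1 region higher in Th2 cells, at Il13, and 1 higher in Treg cells, at Gata3. Over other effector cells, 32 of the 40 regions of the Th2 genes were listed for Th2 cells, against 53.2% of all merged regions. For Treg cells it was 26, against 46.7%. Gata3 alone had more regions for Treg cells, with 9, than for Th2 cells, with 5. The 4 Treg genes, which include Il2ra for the sort marker CD25, had 17 regions higher in Treg and 0 higher in Th2 cells. Because Ccr1, Ccr2 and Ccr3 are also myeloid or eosinophil genes, those markers were counted. Over other effector cells, 12 of the 20 regions of the 4 myeloid genes were listed for Th2 cells, against 53.2% of all merged regions. For Treg cells it was 4 of 20, against 46.7%, and for naive cells 11 of 20, against 33.7%. The myeloid genes had 2 regions higher in Th2 cells and 1 higher in naive cells where these were compared, while Lyz2 had 0 in any table. Between Treg and naive cells, 1 was higher in Treg cells and 2 in naive cells. Between Treg and Th2 cells, 1 was higher in Th2 cells, at Csf1r, and 0 in Treg cells. No region of any gene was higher in other effector cells, so these tables cannot show other cell types in that population. Of the eosinophil and mast cell genes, Epx and Prg2 had 0 regions, Siglecf had 3 higher in Th2 cells than in other effector cells and 1 lower in Treg cells than in Th2 cells, and Kit had 2 higher in Treg cells than in naive cells. Their part in the Ccr1, Ccr2 and Ccr3 results was not tested.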

How the data were processed

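The authors deposited 6 tables of differential regions, which per the submitters' processing notes came from DiffBind with the build named mm9. Aligner, peak caller, normalization and threshold were not given in the sources used here. Each table gives a position and the authors' log2 fold, deposited as 1 value for each region. Regions on the 11 unplaced sequences carry GRCm38-type names, and 21.9% of merged regions lay within 1 kb of a GRCm38.p6 gene end, against 4.20% to 6.16% after shifts of 10 to 1000 kb, so positions are given as GRCm38, 1-based. Folds were read as first-named minus second-named population: they added up exactly at the 4 regions with 1 set of coordinates in all 3 tables of 3 populations, and the overall sign rests on a list of naive marker genes that includes Ccr7, so the direction of those genes is no result, and the list's totals are not reported here.

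Regions overlapping by at least 1 bp were merged (pandas 2.3.3, numpy 2.4.6) and assigned to RefSeq protein-coding genes, whose table has no exons, so regions are only inside or outside a gene. Where a midpoint lay in several genes, the gene with the nearer end took it. Assignment and merging were checked on simulated data. Start sites and their windows came from RefSeq and were read along the gene's strand: of 16291 minus-strand windows, 353 held TATAAA and 118 its reverse complement. Shares were set beside those of all merged regions. The tables give 1 value for each pair of populations, so no test was run. All members were named, with at most 4 other genes for each list and direction. Members and lists were chosen with earlier results of these data known. The farthest member region lay 38915 bp from its gene, well within 100 kb. The nearest region outside the members, 4514 bp from Ccr4 but nearer to Trim71, was lower in other effector cells than in naive cells by 6.45.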

Additional observations from a re-analysis of the deposited data

How the results depend on the processing

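Replicates could not be left out, since the tables hold none. No paired analysis was possible because the tables hold 1 value for each pair of populations. Merging at 50% of the shorter region gave counts within 1.5 times of all 10 counts. With regions outside genes assigned only within 10 kb, members had 30 regions, with 3 higher in Th2 cells than in naive cells, 0 higher in naive cells than in Th2 cells, 10 higher in Th2 cells and 20 higher in Treg cells than in other effector cells. Of the regions lost, 15 were at Ccr1. At folds of at least the table's median, 27 regions stayed, with 5 higher in Th2 cells than in naive, 6 in Treg cells than in naive, 1 in Treg cells than in Th2, and, over other effector cells, 12 for Th2, 20 for Treg and 5 for naive cells. Inside genes only, 11 regions stayed, with 2 higher in Th2 cells than in naive, 4 in Treg cells than in naive, 0 in Treg cells than in Th2, 0 in naive cells than in Th2, 0 in naive cells than in Treg, and, over other effector cells, 5 for Th2, 8 for Treg and 2 for naive cells. The next settings were added after the data were seen. Counting every midpoint within 20 kb of a member, whatever gene was nearer, gave 5 higher in Th2 cells than in naive cells and 1 higher in Th2 cells than in Treg cells, a region beside Cxcr6. Without Ccr1, 34 regions stayed, with 4 higher in Th2 cells than in naive, 12 in Th2 cells than in other effector and 22 in Treg cells than in other effector cells. Treg over naive cells stayed above naive over Treg cells in count under each of these settings. Depth is unknown and only regions that differed were listed, so a missing region is shown neither to be closed nor to be equal in its populations.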

Other observations

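Some neighbouring regions were given to other genes by the rule. Beyond Cxcr3, a region 33.3 kb away that is nearer to Gm4779, chrX:101766998-101767813, was higher in Treg cells than in naive cells by 5.73, than in Th2 cells by 5.74 and than in other effector cells by 5.56. Inside Fyco1 and 33.5 kb from Cxcr6, chr9:123844930-123845504 was higher than in naive cells in Th2 cells by 6.40 and in Treg cells by 6.45. Within 20 kb of Ccr4, and whatever gene was nearer, 12 regions lay in place of 7. Of these, 10 were higher in Treg cells than in other effector cells, where 46.7% of all merged regions were listed that way.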
